A study of Mus musculus with 6 samples.

Results

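The tetraspanins described here were Cd82, which encodes KAI1 and was the gene targeted in the study, and 9 other members of the family known from blood cells: Cd9, Cd37, Cd53, Cd63, Cd81, Cd151, Tspan4, Tspan32 and Tspan33. They were taken as the entries whose RefSeq accessions map to these symbols, and each of the 10 genes had 1 entry among the 23146 transcript entries used. RNA came from EML cells, a mouse bone marrow progenitor line immortalised with a dominant-negative retinoic acid receptor and grown here with stem cell factor at 200 ng/ml and 20% serum; the labels give the strain as BDF1 and the cell type as basophil. The KAI1 knockdown and its knockdown control had 2 libraries each, and the KAI1 overexpression and its overexpression control had 1 library each. The sources used here do not state the agents used for knockdown and overexpression, the number of clones or whether libraries of a group came from separate cultures. The p-values therefore reflect the spread among these libraries alone, which may be technical.

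Tetraspanins are small proteins that cross the membrane repeatedly and carry a large outer loop with a conserved cysteine motif. They gather integrins, immunoglobulin-family proteins, growth factor receptors and each other into membrane domains, often called the tetraspanin web, and they shape trafficking between the surface, endosomes and secreted vesicles. In blood cells, Cd37 and Cd53 are largely restricted to leukocytes, Cd63 marks late endosomes and secretory granules, and KAI1 is known as a metastasis suppressor that, with the surface protein DARC, has been linked to quiescence of blood stem cells. The question here was whether the other members vary with Cd82 when it is targeted.

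Values are the authors' RPKM, that is reads scaled to transcript length and to library size, so levels may be compared between genes. Depth estimated from the steps of low values was 12800000 and 19400000 reads in KAI1 knockdown replicates 1 and 2, 19000000 and 9870000 reads in the knockdown controls, 19500000 reads in the KAI1 overexpression and 25800000 reads in its control. The summed level of 12 mast cell and basophil genes, carried mostly by the proteases Mcpt2, Cma1 and Cpa3, was 8600 and 7514 RPKM in the KAI1 knockdown, 77647 and 16324 RPKM in the knockdown controls, 25391 RPKM in the KAI1 overexpression and 6450 RPKM in its control. Erythroid genes summed over 10 measured of 12 listed to 2374 and 2716 RPKM in the KAI1 knockdown, 171 and 2861 RPKM in the knockdown controls, 696 RPKM in the KAI1 overexpression and 2232 RPKM in its control, so that knockdown control replicate 1 and the KAI1 overexpression had the highest mast cell sums and the lowest erythroid sums. Single markers did not all follow the sums. Mcpt8, on the mast cell and basophil list, had 234 and 116 RPKM in the KAI1 knockdown, against 160 and 389 RPKM in the knockdown controls. It had 3908 RPKM in the KAI1 overexpression, against 491 RPKM in its control. Hdc had 52.8 RPKM in the KAI1 overexpression, below the 150 RPKM in knockdown control replicate 2. Fcer1a had its highest values in the same libraries as the sum. Fcer1a, a chain of the IgE receptor, was listed at 0 and at 0.289 RPKM in the KAI1 knockdown, at 24.2 RPKM and 0 in the knockdown controls, at 7.41 RPKM in the KAI1 overexpression and at 0.261 RPKM in its control. The erythroid sum was carried by the globin gene Hbb-bt, except in knockdown control replicate 1, where Gata1 (87.3 RPKM) stood above Hbb-bt (57.5 RPKM). Gata1 and Epor (15.6 RPKM) were highest in that library. The summed level of 5 B cell genes was at most 2.04 RPKM, that of 4 T cell genes at most 0.842 RPKM and that of 3 stromal genes at most 3.05 RPKM, and Pax5 and Cd3e were listed at 0 in every library. The 3 measured of 4 macrophage genes summed to 5.65 RPKM in knockdown control replicate 1 and to at most 0.46 RPKM elsewhere, with C1qa listed at 0.

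Cd82 (chromosome 2, listed at 93259259 to 93310031 on mm9) had 7.65 and 6.91 RPKM in the KAI1 knockdown, against 43.9 and 13.8 RPKM in the knockdown controls. The knockdown pair lay wholly below the control pair, and the controls themselves stood 3.18-fold apart. In the overexpression arm Cd82 had 15.2 RPKM in the KAI1 overexpression, against 11.9 RPKM in the overexpression control, a ratio of 1.26 on the RPKM + 1 scale. The overexpression library thus lay above its own control and between both knockdown controls. The entry joins 7 RefSeq accessions, so isoforms were not told apart, and the sources used here do not state whether reads of an introduced KAI1 sequence are counted in it, nor from which species that sequence came. By limma on log2(RPKM + 1) the knockdown difference was -1.64 (SE 0.58, n = 2 each), with an unadjusted p = 0.0438 and an adjusted p = 0.83. About 165 and 226 reads were estimated behind the knockdown values and 1404 and 229 behind the controls, and the 95% counting interval reached from 6.54 to 8.93 RPKM in knockdown replicate 1 and from 12.1 to 15.7 RPKM in control replicate 2. Such intervals cover counting error only.

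Cd53 (chromosome 3, 106561779 to 106593067 on mm9), a tetraspanin of leukocytes, was the member whose values lay closest to the pattern of Cd82. It had 13.9 and 11.9 RPKM in the KAI1 knockdown, against 69.3 and 23.8 RPKM in the knockdown controls, and 43.3 RPKM in the KAI1 overexpression, against 16.0 RPKM in its control. From high to low, the 6 libraries came in the same order for Cd53 as for Cd82: knockdown control replicate 1, the KAI1 overexpression, knockdown control replicate 2, the overexpression control, and KAI1 knockdown replicates 1 and 2. Some neighbours in this order had overlapping 95% counting intervals, so it is not firm throughout. For Cd82 these were 13.9 to 16.6 RPKM in the KAI1 overexpression and 12.1 to 15.7 RPKM in knockdown control replicate 2. For Cd53 they were 14.9 to 17.2 RPKM in the overexpression control and 12.4 to 15.5 RPKM in KAI1 knockdown replicate 1. Those of the KAI1 knockdown replicates overlapped for both genes. The knockdown difference of Cd53 was -1.59 (SE 0.56) by limma, with an unadjusted p = 0.0413 and an adjusted p = 0.83, and its ratio in the overexpression arm was 2.6 on the RPKM + 1 scale. The mast cell and basophil sum, given above, was also highest in knockdown control replicate 1, followed by the KAI1 overexpression and knockdown control replicate 2. It did not keep the whole order. The sum was lowest in the overexpression control (6450 RPKM), below both KAI1 knockdown libraries (8600 and 7514 RPKM), where Cd82 and Cd53 were higher than in both. The part of the sum in the result was not tested. In bulk RNA, fewer cells of a type and less RNA per cell cannot be told apart.

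The bases before the transcription start of these genes are shown because Cd82 and Cd53 kept the same order of libraries. They come from RefSeq on GRCm38.p6, a later build than the mm9 of the expression values, and all 10 genes matched, with 15 starts in all. The Cd82 window, at chr2:93462503-93462752 on the minus strand, belongs to the one of its 4 starts at which a GENCODE transcript begins. The Cd53 window lies at chr3:106790150-106790399, also on the minus strand. Each holds 250 bases, 5′ to 3′, and capitals mark the letters TGTGGT (either strand), the core that Runx factors bind.
Cd82: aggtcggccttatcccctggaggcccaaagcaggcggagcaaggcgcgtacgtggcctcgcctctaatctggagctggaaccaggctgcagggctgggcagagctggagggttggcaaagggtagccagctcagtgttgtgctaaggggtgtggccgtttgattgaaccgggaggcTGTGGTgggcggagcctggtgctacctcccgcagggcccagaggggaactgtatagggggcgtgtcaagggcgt
Cd53: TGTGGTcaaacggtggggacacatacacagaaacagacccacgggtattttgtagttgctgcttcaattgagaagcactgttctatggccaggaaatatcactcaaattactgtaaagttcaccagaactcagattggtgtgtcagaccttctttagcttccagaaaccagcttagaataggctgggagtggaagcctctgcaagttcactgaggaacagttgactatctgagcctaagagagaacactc

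Of 10 motifs searched on both strands, TGTGGT was the only one with a match in both windows, and 14.0% of all 32851 RefSeq promoter windows of this length hold it. It is not particular to these windows, since 4 of the 15 starts of the 10 genes hold it. Tspan32, which did not keep the order of Cd82, has 2 matches, and so has another Cd82 start. Other Cd82 starts, not shown, also hold CANNTG and AGGAAG. The Cd82 window also held 1 match each to GATAA (GATA factors; 22.6% of windows) and CCGCCC (GC box; 32.7%). The Cd53 window held 2 matches to CANNTG (E-box; 66.2%). Neither window held AGGAAG (ETS core; 29.5%), CANGTG (a subset of the E-box; 39.5%), TGANTCA (AP-1; 6.75%), TTGCNNCAA (C/EBP; 1.74%), TGACGTCA (CRE; 1.55%) or the NF-kB motif (0.356%). These matches describe letters in the windows and show no binding.

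**Figure D1:**
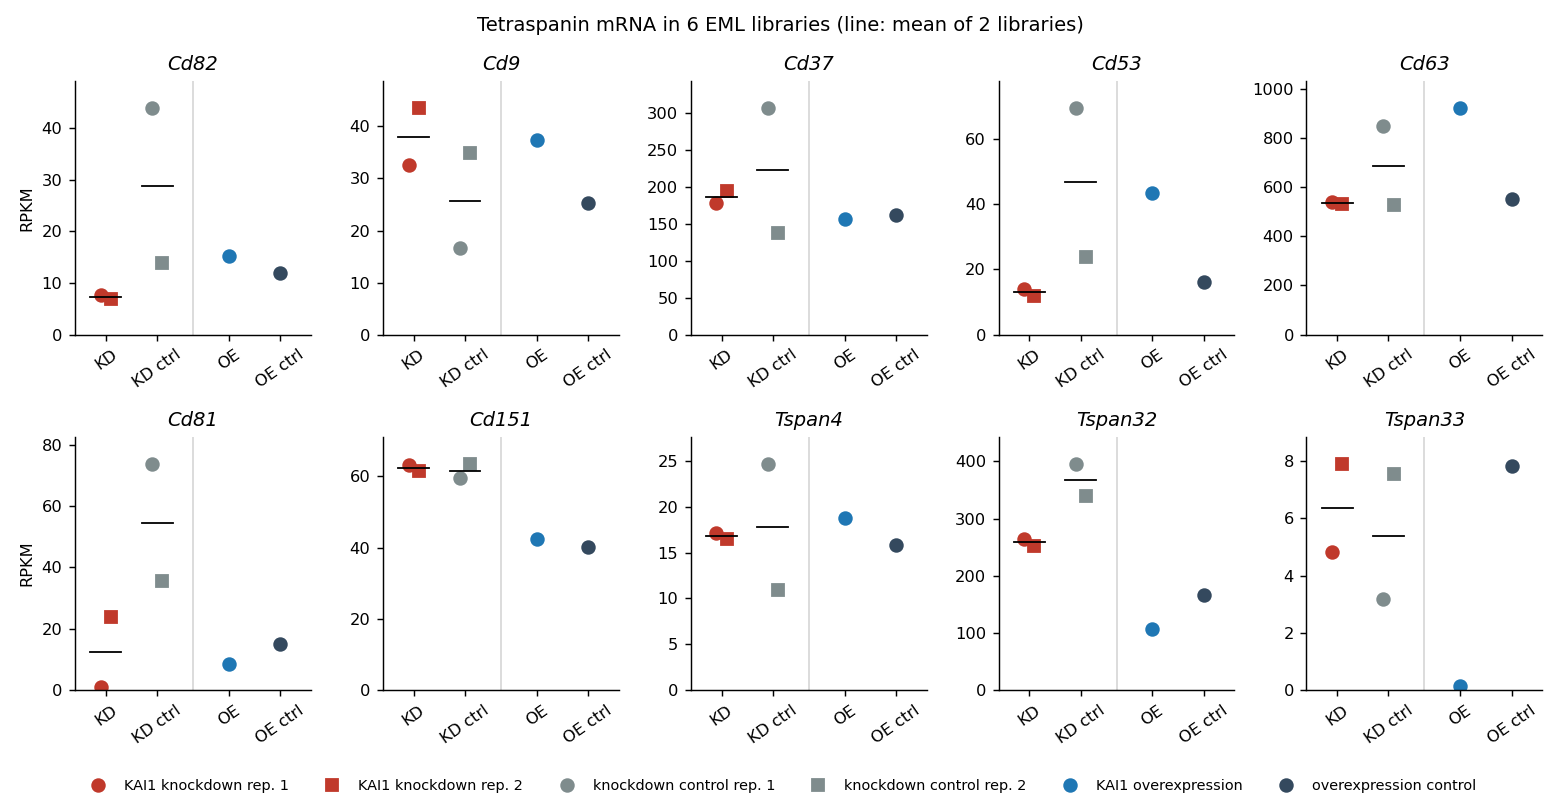
RPKM of the 10 tetraspanins in each of the 6 libraries, with 1 panel per gene, a linear axis from 0, points for libraries and a line for the mean of each pair (KD, KAI1 knockdown; OE, KAI1 overexpression; ctrl, the matching control). Cd82, Cd53, Cd81 and Tspan32 are the panels in which both knockdown points lie below both knockdown controls, and knockdown control replicate 1 is the highest point for Cd82 at 43.9 RPKM.

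Over the 10 genes, limma called 0 in the knockdown, 2 had an unadjusted p below 0.05 (Cd82 and Cd53), and the median difference was -0.23 on the log2 scale, against 0.028 over all 10113 entries tested. The median of the 10 was -0.14 without knockdown control replicate 1 and -0.64 without replicate 2, where that over all entries was 0.031 and 0.026. These figures include the targeted Cd82. Over the other 9 genes the median was -0.14 with all libraries. It was -0.027 without knockdown control replicate 1 and -0.61 without replicate 2. Of these 9, 1 had an unadjusted p below 0.05 by limma, and in 3 the knockdown pair lay wholly below the control pair. Of all entries, 0.00989% were called higher, 0.0198% were called lower and 3.32% had an unadjusted p below 0.05. The knockdown pair lay wholly below the control pair in 4 of the 10, namely Cd82, Cd53, Cd81 and Tspan32, where the share over all entries was 17.0%. It lay wholly above in 0 of the 10, where that share was 21.5%. They were the same 4 genes with either knockdown library left out, where the share over all entries was 25.7% without replicate 1 and 25.8% without replicate 2. The number was 5 without knockdown control replicate 1 and 7 without replicate 2, where the share over all entries was 36.0% and 41.3%. Members wholly above numbered 3 without knockdown control replicate 1 and 3 without replicate 2, where that share was 42.0% and 44.2%. They numbered 2 without KAI1 knockdown replicate 1 (share 32.0%) and 0 without KAI1 knockdown replicate 2 (29.2%). Without knockdown control replicate 2, Cd82 had a difference of -2.44 (adjusted p = 0.0181) and Cd53 one of -2.34 (adjusted p = 0.0203), in a limma fit with 1 control library, which is taken to vary like the knockdown pair. In that fit 6.29% of all entries were called lower and 4.04% higher. Without knockdown control replicate 1 the difference was -0.84 for Cd82 and also -0.84 for Cd53, and neither was called.

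Among the members of the leukocyte surface, Cd37 (chromosome 7, 52489002 to 52494209 on mm9) did not have the pattern of Cd53. It had 178 and 194 RPKM in the KAI1 knockdown, against 306 and 137 RPKM in the knockdown controls, so the groups overlapped (difference -0.14, SE 0.46, adjusted p = 0.947 by limma). In the overexpression arm it had 156 RPKM in the KAI1 overexpression, against 161 RPKM in its control, a ratio of 0.97. Knockdown control replicate 1 was the highest library for Cd37, as for Cd82, while among the other 5 libraries Cd37 was highest in the KAI1 knockdown, where Cd82 was lowest.

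Cd63 (chromosome 10, 128345975 to 128349874 on mm9), the tetraspanin of late endosomes and secretory granules, had the highest level of the 10 in every library and made up 44.1% to 68.2% of their summed RPKM. It had 539 and 529 RPKM in the KAI1 knockdown, against 847 and 525 RPKM in the knockdown controls. The knockdown values lay between both controls, and the difference was -0.32 (SE 0.35, adjusted p = 0.849 by limma). It had 920 RPKM in the KAI1 overexpression, against 550 RPKM in its control, a ratio of 1.67. The 2 libraries with the highest mast cell and basophil sums were thus the highest for Cd63, and the part of the marker sum in this was not tested.

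Cd82 itself made up 0.682% and 0.603% of the summed RPKM of the 10 genes in the KAI1 knockdown and 2.39% and 1.16% in the knockdown controls. It made up 1.13% in the KAI1 overexpression and 1.18% in its control. By level it ranked 8 and 10 of the 10 genes in the knockdown libraries, 7 and 8 in their controls, 8 in the overexpression and 9 in its control. After Cd63, the highest genes were Tspan32 and Cd37 in every library, with Tspan32 above Cd37 in all but the KAI1 overexpression.

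Cd81 (chromosome 7, listed at 150218526 to 150253835 on mm9), which associates with integrins and immunoglobulin-family proteins, varied 64-fold over the 6 libraries. It had 1.15 and 24.0 RPKM in the KAI1 knockdown, against 73.8 and 35.5 RPKM in the knockdown controls. The knockdown pair lay wholly below the control pair, but its libraries stood 20.8-fold apart from each other, and the difference of -2.83 had an SE of 1.27 and an adjusted p = 0.83 by limma. Without KAI1 knockdown replicate 1 it was -1.06, and without replicate 2 it was -4.6. The low value rested on about 23 estimated reads (95% counting interval 0.744 to 1.76 RPKM), and the value in replicate 2 on about 713 (22.2 to 25.8 RPKM). Of 5240 genes other than small RNAs with a mean of at least 10 RPKM in the knockdown arm, 10, or 0.191%, Cd81 among them, differed between the knockdown libraries by as much as Cd81, 3.54 on the log2 scale, where the median gap was 0.17. In the overexpression arm Cd81 had 8.41 RPKM in the KAI1 overexpression, against 15.1 RPKM in its control, a ratio of 0.58 and the opposite direction to Cd82 and Cd53.

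The neighbour of Cd81 is Tspan32 (chromosome 7, 150190951 to 150205390 on mm9), which ends 13135 bases before the span listed for Cd81. That span is also the one listed for R74862 on the opposite strand, so Cd81 itself may begin farther away. Tspan32 (also known as Tssc6) is a tetraspanin of blood cells known in mice from T cell and platelet responses. It had 265 and 252 RPKM in the KAI1 knockdown, against 396 and 340 RPKM in the knockdown controls, which left the groups apart with a difference of -0.50 (SE 0.26, adjusted p = 0.83 by limma). It had 107 RPKM in the KAI1 overexpression, against 166 RPKM in its control, a ratio of 0.65. Tspan32 was thus lower in the KAI1 libraries of both arms, and it did not share the low value of Cd81 in KAI1 knockdown replicate 1. Every library of the knockdown arm also lay above both libraries of the overexpression arm. The gene on the other side of Cd81, Tssc4, had 46.0 RPKM in that library and 54.4 RPKM in KAI1 knockdown replicate 2, against 56.1 and 32.6 RPKM in the knockdown controls.

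Cd9 (chromosome 6, 125410284 to 125444773 on mm9), a partner of integrins and of immunoglobulin-family proteins on many cells, had 32.5 and 43.5 RPKM in the KAI1 knockdown, against 16.7 and 34.8 RPKM in the knockdown controls. The groups overlapped, with a difference of 0.62 (SE 0.43, adjusted p = 0.83 by limma), which was 0.11 without knockdown control replicate 1. It had 37.3 RPKM in the KAI1 overexpression, against 25.3 RPKM in its control, a ratio of 1.46. Knockdown control replicate 1, the highest library for Cd82, was the lowest for Cd9.

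Cd151 (chromosome 7, 148653261 to 148657380 on mm9), which binds laminin-binding integrins, varied least, by 1.58-fold over the 6 libraries. It had 63.1 and 61.4 RPKM in the KAI1 knockdown, against 59.4 and 63.5 RPKM in the knockdown controls. It had 42.3 RPKM in the KAI1 overexpression, against 40.1 RPKM in its control. The values separated the arms of the study rather than the KAI1 groups within an arm: the 4 libraries of the knockdown arm all lay above both libraries of the overexpression arm. Between the arms Tspan32, given above, stood apart in the same way. The share of all entries that does so was not computed. The knockdown difference was 0.021 (SE 0.23, adjusted p = 0.987 by limma), and its sign turned when libraries were scaled to their 75th percentile (-0.023).

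Tspan4 (chromosome 7, listed at 148661135 to 148725756 on mm9), known from migrasomes, the vesicles left on the retraction fibres of moving cells, had 17.1 and 16.5 RPKM in the KAI1 knockdown, against 24.7 and 10.9 RPKM in the knockdown controls. It had 18.8 RPKM in the KAI1 overexpression, against 15.8 RPKM in its control. The knockdown libraries lay between the controls, with a difference of 0.024 (SE 0.43, adjusted p = 0.993 by limma) that was -0.017 after the 75th percentile scaling. Its entry carries the span of the cluster it forms with Chid1 on the opposite strand, and Tspan4 and Chid1 share 292 of 2178 exon bases of Tspan4 in GENCODE. The sources used here do not say whether the libraries were stranded, so reads of overlapping exons cannot be told apart. The same holds for 218 exon bases of Cd9, 13 of Cd37, 104 of Cd81, 193 of Cd151 and 271 of Tspan32, while Cd82, Cd53, Cd63 and Tspan33 share none in that annotation.

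Tspan33 (chromosome 6, 29644256 to 29668558 on mm9), a member of the subgroup that carries the protease ADAM10 to the surface and, in mice, a gene of red cell precursors, was low in all libraries and nearly missing in one. It had 4.81 and 7.91 RPKM in the KAI1 knockdown, against 3.18 and 7.56 RPKM in the knockdown controls. It had 0.135 RPKM in the KAI1 overexpression, against 7.84 RPKM in its control. The value in the KAI1 overexpression rested on about 5 estimated reads (95% counting interval 0.0417 to 0.3 RPKM) and that in its control on about 404 reads, and the control was 7.79-fold higher on the RPKM + 1 scale. The knockdown groups overlapped (difference 0.27, SE 0.46, adjusted p = 0.90 by limma). The 2 libraries lowest for Tspan33, the KAI1 overexpression and knockdown control replicate 1, were also the lowest for the erythroid sum given above, at 696 and 171 RPKM, and the part of the marker sum in this was not tested.

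**Figure D2:**
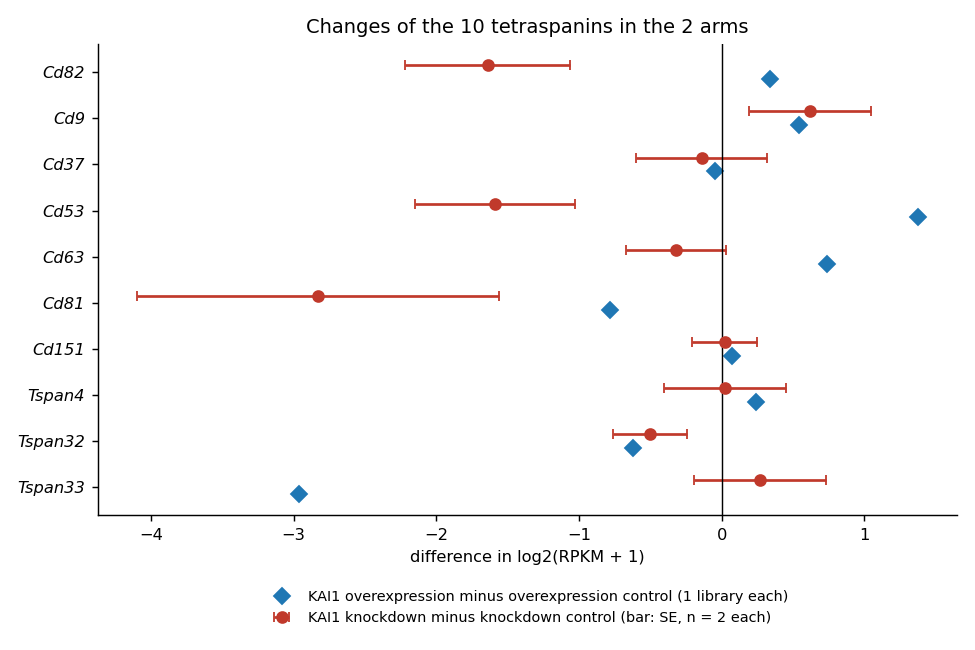
Difference in log2(RPKM + 1) for each tetraspanin in the knockdown (circles, KAI1 knockdown minus knockdown control, bars are the SE, n = 2 each) and in the overexpression arm (diamonds, KAI1 overexpression minus overexpression control, 1 library each, no error). Cd82, Cd53 and Cd63 lie below 0 in the knockdown and above 0 in the overexpression, Cd53 at -1.59 and 1.38, while Cd81 and Tspan32 lie below 0 in both.

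In the overexpression arm, which has 1 library on each side and allows no test, 1 of the 10 genes reached 2-fold upwards (Cd53) and 1 downwards (Tspan33). Over all 9936 entries that averaged 1 RPKM or more in this arm, 4.92% reached 2-fold upwards and 5.21% downwards. Tspan33 passed this filter only through the overexpression control, so its place in the count depends on the filter. The median log2 ratio was 0.16 over the 10 genes, 0.076 over the 9 besides Cd82 and 0.0057 over all entries. The arms have separate controls. Of the 9 genes besides Cd82, Cd53 and Cd63 shared its signs in both arms, lower in the knockdown and higher in the overexpression. Cd81, Tspan32 and Cd37 were lower in both arms, Cd9, Cd151 and Tspan4 higher in both, and Tspan33 higher in the knockdown and lower in the overexpression. The signs of Cd63, Cd37, Cd151, Tspan4 and Tspan33 in the knockdown turned without at least 1 of the 4 libraries, and in the overexpression that of Cd151 turned with the 75th percentile scaling (-0.017).

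**Figure D3:**
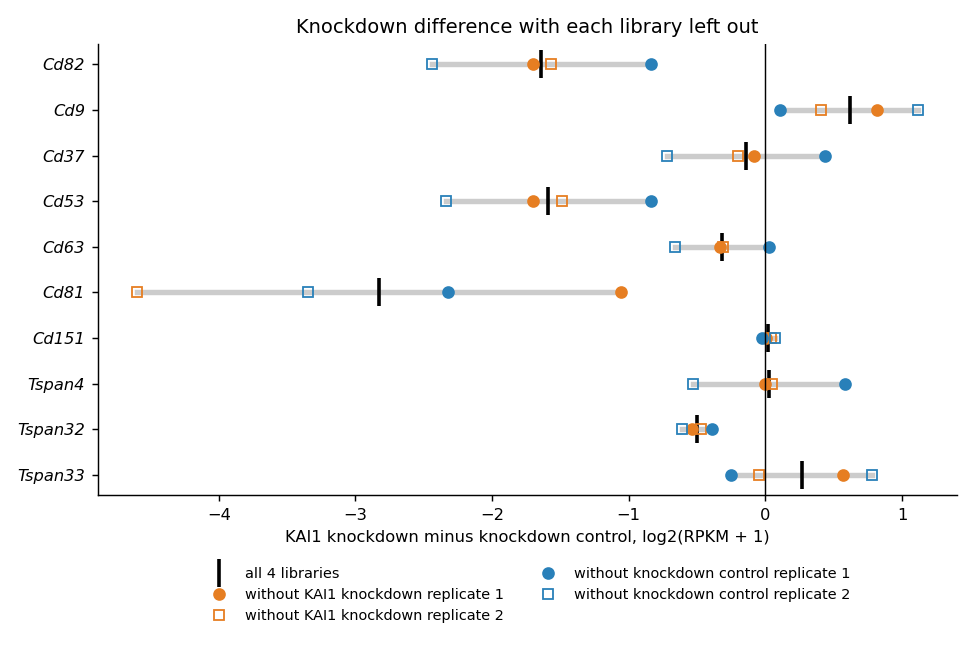
Knockdown difference in log2(RPKM + 1) of each tetraspanin with all 4 libraries (black tick) and with each library left out in turn (circles, replicate 1; open squares, replicate 2; orange, KAI1 knockdown; blue, knockdown control). Cd82 ranges from -2.44 to -0.84 and Cd53 from -2.34 to -0.84, both set by which control is left out, whereas Cd81 ranges from -4.6 to -1.06 with the knockdown library left out.

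Likeness to Cd82 was described by Pearson's r in log2(RPKM + 1) over the 6 libraries, which share groups, arms and the mast and erythroid contrast given above, so no p is attached. Among the 9 other genes r was 0.93 for Cd53, 0.71 for Cd63, 0.64 for Cd81, 0.63 for Cd37, 0.55 for Tspan4, 0.30 for Tspan32, -0.062 for Cd151, -0.34 for Tspan33 and -0.82 for Cd9. Spearman's rho was 1 for Cd53, 0.6 for Cd63, 0.43 for Cd81, 0.49 for Tspan4 and -0.086 for Cd37. Of the 10111 other genes averaging 1 RPKM or more, 47, or 0.465%, Cd53 among them, put the libraries in the same order as Cd82, and 57, or 0.564%, put them in exactly the reverse order. Of the same genes 1.24% had an r at least as high as Cd53. That share was 15.6% for Cd63, 19.7% for Cd81 and 20.2% for Cd37. The median r over these genes was -0.05.

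Most of these values rested on knockdown control replicate 1, where Cd82 was highest. Without it r was 0.87 for Cd53, 0.58 for Cd63 and 0.31 for Cd81, and it was -0.88 for Cd37, -0.27 for Tspan4 and -0.46 for Tspan32. Without the 2 libraries farthest from the median of Cd82, which were knockdown control replicate 1 and KAI1 knockdown replicate 2, it was 0.83 for Cd53, 0.56 for Cd63, 0.78 for Cd81 and 0.30 for Cd9. Cd53 and Cd63 were the members for which r stayed above 0.5 in each of these.

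**Figure D4:**
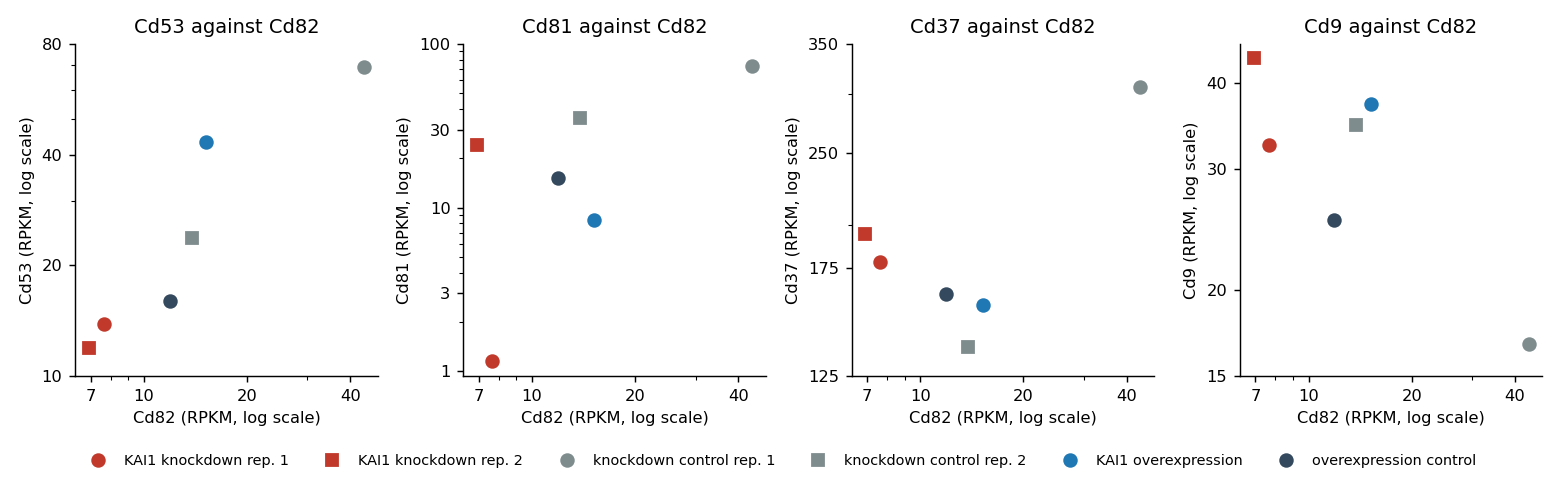
RPKM of Cd53, Cd81, Cd37 and Cd9 against RPKM of Cd82 on log axes, with 1 point per library. For Cd53 the points go up together (r = 0.93 over 6 libraries), for Cd81 KAI1 knockdown replicate 1 lies far below the rest at 1.15 RPKM, and for Cd37 the 5 points other than knockdown control replicate 1 go down (r = -0.88).

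**Figure D5:**
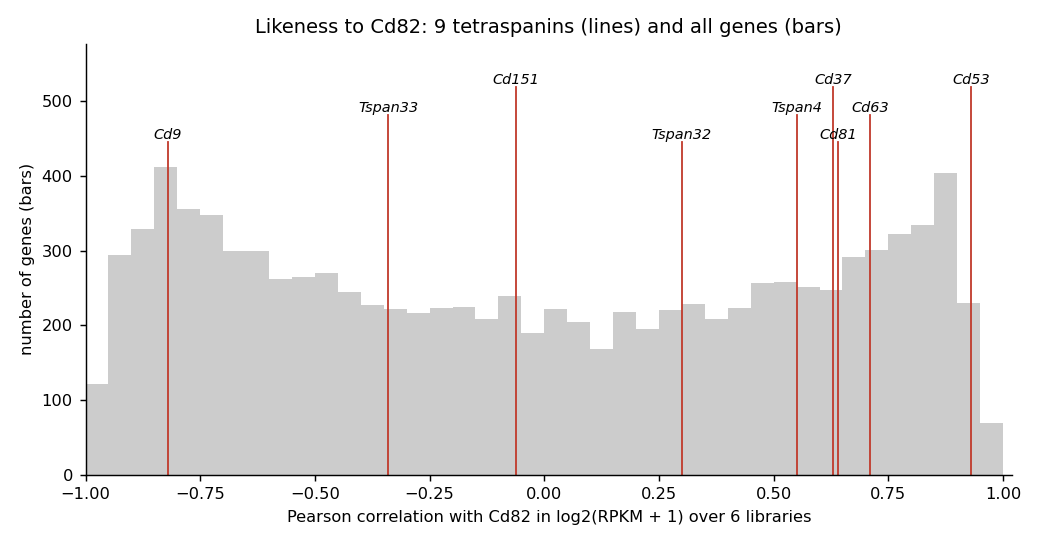
Number of genes by their Pearson correlation with Cd82 over the 6 libraries (bars, 10111 genes averaging 1 RPKM or more), with a line for each of the 9 other tetraspanins. The lines spread from -0.82 for Cd9 to 0.93 for Cd53 over nearly the whole range of the bars.

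Of 5168 genes other than small RNAs with a mean of at least 10 RPKM, the 5 most like Cd82 were Rab27a (r = 0.993), Pon2 (0.991), Eif5b (0.985), Ptpn2 (0.982) and Irf2bpl (0.978). Rab27a, a small GTPase that brings secretory granules and exosomes to the membrane, had 19.0 and 19.0 RPKM in the KAI1 knockdown, against 30.5 and 23.3 RPKM in the knockdown controls, and 23.9 RPKM in the KAI1 overexpression, against 21.7 RPKM in its control. It spanned 1.61-fold from the lowest to the highest library, where Cd82 spanned 6.35-fold. Among the genes most unlike Cd82 were Macroh2a1, Hsf1, Macrod1 and Rae1, with r from -0.995 to -0.993. Macroh2a1, a histone variant, had 216 and 210 RPKM in the KAI1 knockdown, against 98.6 and 169 RPKM in the knockdown controls.

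Cd82 had no expressed neighbour in the deposited coordinates. Gm10804, listed with the same span as Cd82, was at most 0.0238 RPKM. Gm13807, which ends 1271 bases before that span, was at most 0.356 RPKM, and Alx4, the next entry after it, at most 0.0448 RPKM. Cd151 and Tspan4 flank Polr2l, a subunit of RNA polymerases, which had 230 and 214 RPKM in the KAI1 knockdown, against 204 and 167 RPKM in the knockdown controls. In that cluster Cd151 varied 1.58-fold and Tspan4 2.26-fold over the 6 libraries.

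Of 21 other tetraspanin genes, 6 were listed at 0 in every library (Tspan6, Tspan7, Tspan11, Tspan12, Upk1b and Prph2) and 9 averaged 1 RPKM or more in the knockdown arm. Limma called 0 of the 9, with 1 at an unadjusted p below 0.05, and their median difference was -0.0092. The knockdown pair stood clear of its controls upwards in 2 of the 9 and downwards in 3, where the shares over all entries were 21.5% and 17.0%. Tspan3, which had the unadjusted p = 0.0272, had 6.24 and 11.8 RPKM in the KAI1 knockdown, against 1.53 and 3.62 RPKM in the knockdown controls (adjusted p = 0.83 by limma). Tspan14, of the ADAM10 subgroup, had 13.8 and 18.0 RPKM in the KAI1 knockdown, against 7.71 and 10.9 RPKM in the knockdown controls. Tspan2 had 2.41 and 1.94 RPKM in the KAI1 knockdown, against 20.9 and 2.71 RPKM in the knockdown controls, so the size of its difference rested on knockdown control replicate 1.

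Tspan9, known from platelets, had 3.06 and 2.86 RPKM in the KAI1 knockdown, against 3.15 and 3.09 RPKM in the knockdown controls. It had 0.127 RPKM in the KAI1 overexpression, against 2.05 RPKM in its control. It was the 1 of these 9 genes to reach 2-fold downwards there, while 0 reached it upwards. Tspan9 passed the filter of this arm, a mean of at least 1 RPKM, only through the overexpression control, so its place in the count depends on the filter. The shares over all entries in that arm were 5.21% downwards and 4.92% upwards. Tspan9 and Tspan33 were thus both near 0 in the same library, the KAI1 overexpression.

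Known partners of tetraspanins were also measured. Of 29 listed genes, 19 averaged 1 RPKM or more in the knockdown arm, and limma called 0, with 1 at an unadjusted p below 0.05 (Cd74, at 0.849 and 0.0932 RPKM in the KAI1 knockdown, against 1.95 and 2.93 RPKM in the knockdown controls). Cd74 passed this filter only through the knockdown controls, so its low values in the knockdown are no separate support. The knockdown pair stood clear of its controls upwards in 2 and downwards in 5 of the 19, where the shares over all entries were 21.5% and 17.0%. The median difference was -0.27, and it was 0.011 without knockdown control replicate 1. Of the 12 integrin subunits among them 10 were tested, with a median of 0.16 that was -0.14 without knockdown control replicate 2. Itgb1, the beta chain that most tetraspanin-bound integrins share, had 37.8 and 37.1 RPKM in the KAI1 knockdown, against 44.8 and 46.9 RPKM in the knockdown controls (difference -0.28, SE 0.22, adjusted p = 0.83 by limma). Itgal, the alpha chain of LFA-1, had 31.6 and 34.6 RPKM in the KAI1 knockdown, against 4.5 and 23.8 RPKM in the knockdown controls.

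ADAM10, the protease that Tspan33 and Tspan14 escort, is encoded by Adam10, which had 8.75 and 7.89 RPKM in the KAI1 knockdown, against 10.9 and 8.53 RPKM in the knockdown controls. It had 5.68 RPKM in the KAI1 overexpression, against 6.77 RPKM in its control, and did not share the low value of Tspan33. Igsf8, an immunoglobulin-family protein that binds Cd81 and Cd9, had 11.3 and 16.1 RPKM in the KAI1 knockdown, against 18.8 and 11.9 RPKM in the knockdown controls.

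In the overexpression arm 5 of 18 measured partners reached 2-fold upwards and 1, Itgb2, downwards, where the shares over all entries were 4.92% and 5.21%. The 5 included both genes of the IgE receptor on the list, whose protein lies beside CD63 and CD81 on mast cells. Fcer1a had 7.41 RPKM in the KAI1 overexpression, against 0.261 RPKM in its control, and Ms4a2 had 5.86 RPKM, against 0.443 RPKM. Both passed the filter of this arm, a mean of at least 1 RPKM, only through the KAI1 overexpression. Their place in the count therefore depends on the filter and is no separate support. Itgb7, the beta chain of the integrin that homes mast cell progenitors to the gut, had 45.0 RPKM in the KAI1 overexpression, against 14.2 RPKM in its control, and Ifitm1, which associates with CD81, had 6202 RPKM, against 1608 RPKM. Both IgE receptor genes are also on the mast cell and basophil marker list, whose sum was 25391 RPKM in the KAI1 overexpression and 6450 RPKM in its control, and its part in the result was not tested.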

How the data were processed

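The authors deposited 1 table of RPKM per library, with a RefSeq accession list and an mm9 locus for each entry, per the file headers. Per the submitters' processing notes, TopHat2 2.0.9, Bowtie, Cufflinks and mm9 were used; their settings are not stated there. Of 23170 entries per table, 24 repeated an accession list and locus and were dropped. Symbols came from RefSeq (22840 entries) and GENCODE M21 (125), both on another build than mm9, so no coordinate was moved between them; deposited starts were moved by 1 to count from 1. Loci of overlapping genes can be those of the whole cluster.

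Knockdown differences in log2(RPKM + 1) came from limma 3.58.1 (R 4.3.3; trend option on), fitted two-sided over the 10113 entries that averaged 1 RPKM or more in that arm, with Benjamini-Hochberg adjustment over all of them and a threshold of 0.05. All 10 members passed this filter. Fold changes on this scale understate the change of low genes. The procedure was checked on simulated data with the same spread for every gene. In these libraries the spread differed between genes, so that check does not show how many changes are missed here. The overexpression arm was described by its ratio, with a size rule of 2-fold. Depth was estimated from the steps between low values: relative depths closed within 0.5% for all 15 library pairs, and 1440 entries with known transcript length gave the absolute scale. No count test was run. Estimated reads used the median transcript length of an entry's accessions.

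The members and gene lists were chosen with earlier results of these data known. Named genes were the members, genes of the lists averaging 1 RPKM or more, neighbours in the genome, and the 5 genes most and the 5 least like Cd82. Some genes that this rule names are not reported here. Motifs were chosen after seeing values. Protein sequences were not used here. Alternatives were another pseudocount (0.1), filter (none or 5 RPKM), scaling, a fit without the trend, the replicate number as a block, and each library left out.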

Additional observations from a re-analysis of the deposited data

How the results depend on the processing

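The knockdown difference of Cd82 kept its direction under every alternative (-2.44 to -0.84) and passed limma's threshold only without knockdown control replicate 2 (-2.44, adjusted p = 0.0181; other adjusted p from 0.406 to 1). Over the 10 genes and 11 alternatives, 9 of 110 knockdown values changed sign. With a library left out the range was -0.72 to 0.44 for Cd37, -0.66 to 0.024 for Cd63, -0.027 to 0.068 for Cd151, -0.53 to 0.58 for Tspan4 (-0.002 without KAI1 knockdown replicate 1) and -0.25 to 0.78 for Tspan33 (-0.043 without KAI1 knockdown replicate 2). With the 75th percentile scaling Cd151 was -0.023 and Tspan4 -0.017 in the knockdown, and Cd151 -0.017 in the overexpression. The number of all genes called by limma was 3, was 5 with a pseudocount of 0.1, and was 0 with no filter, where 683 had an unadjusted p below 0.05 among 15105 entries. It ranged from 0 to 1045 with a library left out; the 0 came without either knockdown library, with 88 (replicate 1) and 58 (replicate 2) genes at an unadjusted p below 0.05. Of the 10 tetraspanins, 4 had all knockdown libraries below all controls, and 4 to 7 with a library left out, an alternative chosen after seeing the data. The share over all entries was 17.0% with all libraries and 25.7% to 41.3% with one left out. Above all controls were 0 of the 10, and 0 to 3 with a library left out, where the share was 21.5% and 29.2% to 44.2%. Past the 2-fold size rule in the overexpression were 1007 genes, and 654 with a mean of at least 5 RPKM, where fewer genes are considered. For Tspan33 the log2 ratio was -5.08 with a pseudocount of 0.1, against -2.96 with a pseudocount of 1. Correlations with Cd82, recomputed after seeing the data, turned sign without knockdown control replicate 1 for Cd37 (-0.88), Tspan4 (-0.27) and Tspan32 (-0.46), and without the 2 farthest libraries for Cd37 (-0.77), Tspan4 (-0.22), Tspan32 (-0.43) and Cd9 (0.3). The replicate block left Cd82 at -1.64 (adjusted p = 0.999 by limma) and called 4 genes. Over the entries tested, the difference between replicates 1 and 2 in the KAI1 knockdown had a correlation of -0.0754 with that in the controls. With 1 such difference per group, this cannot show whether same-numbered libraries were paired. The causes of these changes were not tested. The fewest estimated reads stood behind Tspan33 in the KAI1 overexpression (5) and Cd81 in KAI1 knockdown replicate 1 (23).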

Other observations

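Genes of vesicle release and trafficking that tetraspanins travel with were measured as a list of 10, of which 8 averaged 1 RPKM or more in the knockdown arm. Limma called 0 of the 8, with 0 at an unadjusted p below 0.05, and the knockdown pair stood clear of its controls downwards in 3 and upwards in 0, where the shares over all entries were 17.0% and 21.5%. Rab27b, which acts with Rab27a in the docking of mast cell granules and exosomes, had 4.65 and 7.05 RPKM in the KAI1 knockdown, against 26.3 and 8.37 RPKM in the knockdown controls. It had 22.2 RPKM in the KAI1 overexpression, against 3.15 RPKM in its control. Rab27b was the 1 gene of 8 on the list at least 2-fold higher there, where the share over all entries was 4.92%. Sdcbp, which encodes the adaptor syntenin that binds the tail of CD63, had 50.9 and 56.0 RPKM in the KAI1 knockdown, against 55.0 and 76.8 RPKM in the knockdown controls, and 39.1 RPKM in the KAI1 overexpression, against 49.4 RPKM in its control.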
